A study of Homo sapiens with 24 samples.

Results

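Antisense RNAs are transcribed from the strand opposite a named gene, and their symbols carry that gene's name followed by -AS and a number. Of 610 such symbols with 1 digit among the 23354 genes of the count table, 157 had no count in any of the 24 libraries, and 248 reached a summed raw count of 240. Without EPB41L4A-AS1, which was left out by rule, 247 antisense RNAs were taken as the set, and each was set against its sense partner, the gene named before the hyphen. The members were thus chosen by their summed count over all libraries, which is no result. ENO1-AS1, IDI2-AS1 and STPG3-AS1, with 242 counts each, were just inside, and LMCD1-AS1 with 232 and ZRANB2-AS2 with 230 were just outside. The partner was in the table for 243 members (241 genes, since some have more than 1 antisense RNA) and was not there for C20orf166-AS1, HOXB-AS1, RPARP-AS1 and TRG-AS1.

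The RNA came from MV4-11 and KG-1a, cell lines labelled as acute myeloid leukemia (AML) with genotype WT, left untreated or given 1 µM 8-chloro-adenosine (8CA) or 1 µM 8-amino-adenosine (8AA) for 8 h or 24 h. These drugs are adenosine analogs that carry a chlorine or an amino group on the purine ring. Each of the 12 groups had 2 libraries of total RNA, replicates A and B, and nothing states that they came from separate cultures, so the p-values measure the spread between these libraries, which may be technical. The libraries held 18633963 to 24520078 counts on genes. Of the AML markers, FLT3 (426 to 621 CPM, counts scaled to the size of the library) and CD33 (105 to 141 CPM) were present in MV4-11 and at most 1.32 and 1.02 CPM in KG-1a, which had CD34 (325 to 629 CPM), no count for MEIS1, and the T cell genes CD3D (174 to 264 CPM) and CD3E (22.2 to 78.3 CPM), which had no count in MV4-11. SPI1, a myeloid transcription factor, was at 219 to 280.4 CPM in MV4-11 and 5.86 to 7.81 CPM in KG-1a. Other AML markers were present in both lines. PTPRC was at 80.9 to 152 CPM in MV4-11 and 688 to 788 CPM in KG-1a, and MYB at 633 to 731 and 367 to 491 CPM. LMO2 was at 135 to 171 and 44.1 to 67.6 CPM, and HOXA9 at 7.11 to 9.40 and 22.3 to 27.8 CPM. The T cell gene CD2 was at 1.05 to 1.94 CPM in KG-1a. The identity of the cells was not tested beyond such markers. In bulk RNA fewer cells of a kind and less RNA per cell cannot be told apart. The 24 h 8AA libraries of KG-1a differed from each other more than any other replicate pair did (chi-square per degree of freedom 12.3, against 1.43 to 5.20 in the other groups), so the main counts of the KG-1a 8AA group at 24 h are given without each of them too.

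Antisense RNAs share a locus with their partner in a few ways. Many start at the same promoter region as the partner and run away from it (head-to-head), others run into its end (tail-to-tail), and some lie wholly inside it. Some are known to act on the neighbouring gene through transcription or chromatin, others act elsewhere in the cell or host small RNAs, and many have no known role. Such RNAs are often short-lived, and the nuclear exosome, which degrades RNA from its end, removes many of them soon after they are made.

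All 243 members with a partner in the table lay on the strand opposite to it. By the gene spans of the table, whose coordinates fit hg19 and not GRCh38, 83 pairs were head-to-head and overlapped, 69 were head-to-head and apart, 53 overlapped tail-to-tail, 22 members lay inside the partner, 13 spanned it, and 3 were tail-to-tail and apart. The starts of 122 pairs were within 1000 bases of each other. In GENCODE release 29, 215 pairs could be matched by symbol, and in 164 of these the exons of both genes overlapped. The sources used here do not say whether reads were counted by strand. In overlapping exons a read of the antisense RNA and one of its partner therefore cannot be told apart. The values of members among the 51 pairs with no shared exon base are given beside the main results.

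The promoter regions of 4 members on which results below turn are printed here as RefSeq sequence (GRCh38.p14), from 250 bases before to 50 bases after the annotated start, in the direction of transcription. Capitals mark CCAAT, the motif bound by the factor NF-Y, or its reverse complement ATTGG. PSMA3-AS1 and THAP9-AS1 are shown as members that rose, TMPO-AS1 as one that fell, and STX18-AS1 as one that starts next to its partner.
PSMA3-AS1 (chr14:58298088-58298387, minus strand): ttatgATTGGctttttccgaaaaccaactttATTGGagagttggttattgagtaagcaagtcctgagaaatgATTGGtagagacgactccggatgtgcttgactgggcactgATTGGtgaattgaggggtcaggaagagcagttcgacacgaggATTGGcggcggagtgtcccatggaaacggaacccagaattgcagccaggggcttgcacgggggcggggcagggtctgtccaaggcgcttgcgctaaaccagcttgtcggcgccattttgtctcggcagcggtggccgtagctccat
THAP9-AS1 (chr4:82900867-82901166, minus strand): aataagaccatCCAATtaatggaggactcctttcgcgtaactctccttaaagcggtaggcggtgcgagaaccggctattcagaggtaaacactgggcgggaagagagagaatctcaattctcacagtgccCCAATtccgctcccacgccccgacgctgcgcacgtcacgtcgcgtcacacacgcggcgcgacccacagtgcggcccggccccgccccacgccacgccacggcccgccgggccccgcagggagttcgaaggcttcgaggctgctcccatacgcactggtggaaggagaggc
TMPO-AS1 (chr12:98516177-98516476, minus strand): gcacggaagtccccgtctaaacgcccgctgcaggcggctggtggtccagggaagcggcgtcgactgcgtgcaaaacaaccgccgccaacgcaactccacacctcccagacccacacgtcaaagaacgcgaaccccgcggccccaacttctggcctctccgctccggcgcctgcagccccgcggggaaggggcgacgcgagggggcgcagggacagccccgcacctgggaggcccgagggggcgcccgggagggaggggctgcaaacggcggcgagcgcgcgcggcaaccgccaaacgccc
STX18-AS1 (chr4:4541881-4542180, plus strand): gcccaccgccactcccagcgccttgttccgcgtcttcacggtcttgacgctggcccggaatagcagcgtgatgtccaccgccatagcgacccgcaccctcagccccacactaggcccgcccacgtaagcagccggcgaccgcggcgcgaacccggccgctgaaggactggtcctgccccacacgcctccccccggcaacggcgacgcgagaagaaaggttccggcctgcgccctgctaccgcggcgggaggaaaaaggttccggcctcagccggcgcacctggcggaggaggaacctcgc
PSMA3-AS1 held 5 such matches, THAP9-AS1 held 2, and TMPO-AS1 and STX18-AS1 held none. The windows of TMPO-AS1 (39 CG dinucleotides) and STX18-AS1 (37) were richer in CG than that of PSMA3-AS1 (17). RefSeq gave a promoter for 159 members. CCAAT on either strand was in 32.7% of these and in 34.6% of all 35116 promoters, so its share in the set was close to that of promoters in general. The GC box GGGCGG was in 56.0% of member promoters, 66.7% of partner promoters and 45.0% of all, and TATAAA in 6.92%, 8.46% and 11.5%. Member promoters held a median of 24 CG dinucleotides, partner promoters 26 and all promoters 14. A match is a description of the letters and no evidence of binding. Of 141 pairs with both promoters, 19 had the antisense start 0 to 250 bases upstream of the sense start.

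The members together took 0.2371% of all counts. Per kilobase of exon, the untreated level of the antisense RNA was a median of 0.124 of its partner's in MV4-11 over 201 pairs with at least 10 counts in each gene, and 0.109 in KG-1a over 197 pairs. In 31 and 34 pairs the antisense RNA had the higher level per kilobase. These included VPS9D1-AS1, which was 22.2 times its partner in MV4-11 and 13.6 times in KG-1a, and THAP9-AS1, at 9.99 and 8.77 times. TTN-AS1, antisense to the muscle protein titin, was 878 and 2671 times TTN, which blood cells barely express, and shares 11381 exon bases with it. PSMA3-AS1 was well below its partner, with 0.0363 and 0.0698 of the level of PSMA3, a subunit of the proteasome core.

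LRRC75A-AS1, a host of small nucleolar RNAs, had the highest mean CPM of the set. At 24 h it was at 816 and 875 CPM untreated, 1199 and 1223 CPM with 8CA and 1029 and 1063 CPM with 8AA in MV4-11. The KG-1a libraries held 156 and 151 CPM untreated, 281 and 271 CPM with 8CA and 193 and 172 CPM with 8AA. Its partner LRRC75A had at most 0.23 CPM in any library. FGD5-AS1, the next, ranged from 111 to 127 CPM in MV4-11 and from 192 to 249 CPM in KG-1a, where FGD5 had at most 0.106 CPM. The abundant members thus included RNAs whose partner was silent or nearly so in these cells.

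The untreated lines differed in most members, as they did in most genes. In a fit of all 24 libraries (edgeR quasi-likelihood, Benjamini-Hochberg over all genes tested), 110 of 247 members were higher in MV4-11 and 93 were higher in KG-1a, where 43.1% and 44.3% of all genes tested were (together 87.4%). PTPRG-AS1, with 5.77 and 7.37 CPM at 8 h and 7.33 and 7.75 CPM at 24 h in untreated MV4-11, had no count in any KG-1a library and was at least 189-fold higher against a floor of 3 counts over the 4 untreated KG-1a libraries. In KG-1a it was the partner PTPRG, a receptor phosphatase, that was present, at 104 and 105 CPM untreated at 24 h. INHBA-AS1 (at least 179-fold), PRKAG2-AS1 (145) and PIK3CD-AS1 (127) were likewise at 0 in the untreated KG-1a libraries. The partner INHBA, a subunit of activin, had at most 0.0447 CPM in KG-1a, whereas PRKAG2 (a subunit of the AMP-activated kinase) and PIK3CD (the delta catalytic subunit of PI3K) had counts in both lines.

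ZNF667-AS1 was the reverse case, at 25.6 and 22.2 CPM in untreated KG-1a at 24 h and at 0 in all 12 MV4-11 libraries, at least 636-fold higher. A1BG-AS1 (at least 215-fold), RNF144A-AS1 (143), ARHGAP5-AS1 (117) and SAMSN1-AS1 (100.5) had no count in the untreated MV4-11 libraries. C20orf166-AS1 had 1 count there against 2194 in untreated KG-1a, a ratio of 2273 with a 95% counting interval of 407 to 89804. ZEB2-AS1, antisense to a zinc finger repressor, had 407 counts in untreated MV4-11 and 2 in KG-1a, a ratio of 196 (54.0 to 1628), while ZEB2 itself was at 654 and 625 CPM in MV4-11 and 52.3 and 54.3 CPM in KG-1a. Over all libraries, 3 members (ARHGAP5-AS1, XXYLT1-AS2 and ZNF667-AS1) had no count in MV4-11 and 6 had none in KG-1a. These intervals and floors cover counting error only.

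**Figure D1:**
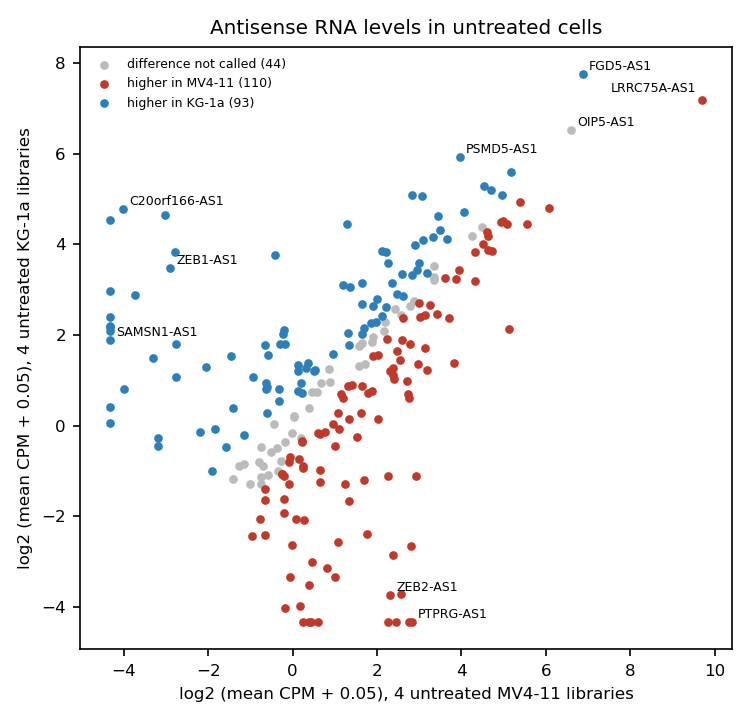
Mean untreated level of each antisense RNA in KG-1a (y) against MV4-11 (x), as log2 of CPM plus 0.05, one point a member, coloured by the call between lines. Of the 247 points, 110 were called higher in MV4-11, 93 higher in KG-1a and 44 were not called, and members at 0 in one line lie along that axis.

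At 24 h the called members were mostly higher with both drugs in both lines. In MV4-11, 222 members passed the count filter, and with 8CA 66 of them rose and 13 fell, where 21.2% of all genes tested rose and 22.7% fell (together 43.9%). These are 29.7% and 5.86% of the members tested. With 8AA in MV4-11 52 rose and 2, MAFG-AS1 and TMPO-AS1, fell, against 13.9% and 15.3% of all genes (together 29.1%). In KG-1a 218 members were tested, and with 8CA 76 rose and 13 fell (all genes 23.4% and 24.0%, together 47.4%). With 8AA 102 rose and 20 fell (all genes 25.4% and 26.6%, together 51.9%), so 46.8% of the members tested rose. The median log2 fold change of the members was 0.22, 0.25, 0.34 and 0.40 in this order, while that of all genes tested was 0.00, 0.00, 0.01 and 0.01.

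The share of members that fell was thus below that of all genes in each of the 4 comparisons, and each drug within a line was set against the same untreated libraries. This comparison is not matched for level, and falling shares by level are given below. At 24 h members took 0.230% and 0.232% of the counts in the untreated MV4-11 libraries and 0.277% to 0.301% in the treated ones. In KG-1a they took 0.199% in each untreated library and 0.250% to 0.269% in the treated ones. LRRC75A-AS1 alone makes up much of these counts in MV4-11, with 35769 untreated, 55982 with 8CA and 43866 with 8AA over the 2 libraries of each group. In KG-1a it had 6119, 11974 and 8461, so the shares do not describe the typical member. Without replicate A of the KG-1a 8AA group 98 members rose and 20 fell, and without replicate B 90 rose and 17 fell. In MV4-11 the 66 that rose with 8CA became 41 without the 24 h untreated replicate B or the 24 h 8CA replicate A, and the 13 that fell became 7 without the 24 h untreated replicate A. The 52 that rose with 8AA became 34 and 26 without the 24 h untreated replicates A and B, and 21 and 33 without the 24 h 8AA replicates A and B. By DESeq2's Wald test 36 rose and 7 fell with 8CA in MV4-11, and 24 rose and 1 fell with 8AA. In KG-1a the members that fell became 8 with 8CA and 12 with 8AA without the 24 h untreated replicate B. A few members passed the count filter through treated libraries only (4 in MV4-11, 8 in KG-1a). With a filter on the mean over all 12 libraries, chosen after the data were seen, the counts were 67 higher and 13 lower, 52 and 2, 74 and 13, and 103 and 18.

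Members are less abundant than most genes, and rare genes outside the set had raised medians as well. At a mean level between 2 and 4 on the log2 CPM scale, genes outside the set had median log2 fold changes of 0.08 (8CA) and 0.09 (8AA) in MV4-11 and 0.07 and 0.13 in KG-1a, and the 71 members in this band in each line 0.25, 0.19, 0.35 and 0.44. Above 4, the 26 members in MV4-11 had a median of 0.24 with 8CA and 0.19 with 8AA, where the other genes were at -0.03 with each drug. The 34 members above 4 in KG-1a were at 0.31 and 0.25, where the other genes were at -0.03 and -0.05. Of the members above 4, 53.8% (8CA) and 42.3% (8AA) rose in MV4-11 and 58.8% and 64.7% in KG-1a, against 22.3%, 12.9%, 24.8% and 23.9% of the other genes at that level. In the same order 11.5%, 3.85%, 14.7% and 14.7% of these members fell, against 29.8%, 21.7%, 31.4% and 34.9% of the other genes. In the band from 0 to 2, which held 90 members in MV4-11 and 78 in KG-1a, the shares were nearer to each other. There 22.2% and 14.4% of members rose in MV4-11 (other genes 16.0% and 14.3%), and 17.9% and 41.0% in KG-1a (18.97% and 28.0%). Of the members in this band 6.67% and 0% fell in MV4-11 (other genes 9.47% and 3.83%). In KG-1a 5.13% and 8.97% of them fell (7.96% and 7.10%), so with 8AA they fell there slightly more often than other genes. Below 0 the 35 members in MV4-11 had a lower median than the others with 8CA (0.03 against 0.07), and 8.57% of them rose against 7.49%. With 8AA in MV4-11 their median was higher (0.46 against 0.22), and 11.4% rose against 6.23%. In KG-1a the medians below 0 were 0.56 against 0.22 with 8CA and 0.58 against 0.31 with 8AA. There 17.1% of members rose with each drug, against 10.3% and 17.2% of the others.

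**Figure D2:**
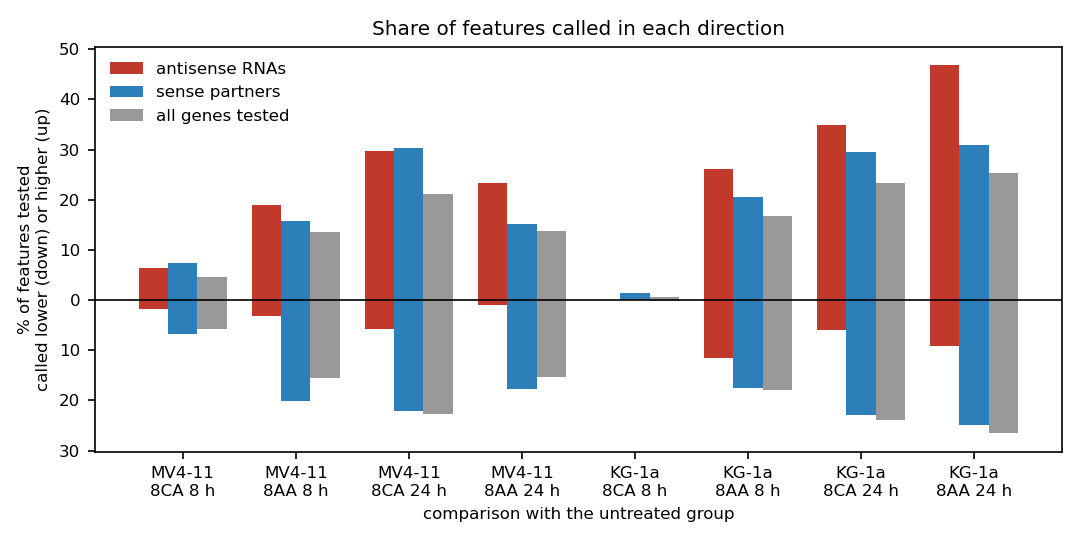
Percent of tested antisense RNAs, of tested sense partners and of all genes tested that were called lower (down from 0) or higher (up from 0) in each of the 8 comparisons with untreated libraries. At 24 h 29.7% (8CA) and 23.4% (8AA) of the antisense RNAs rose in MV4-11 and 34.9% and 46.8% did in KG-1a, with fewer falling than among all genes.

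Among the sense partners the share that fell was closer to that of all genes. At 24 h in MV4-11, of 204 partners tested, 62 (30.4%) rose and 45 (22.1%) fell with 8CA, so with this drug they rose about as often as the members did (29.7%). With 8AA 31 (15.2%) rose and 36 (17.6%) fell there. In KG-1a, of 200 partners tested, 59 (29.5%) rose and 46 (23.0%) fell with 8CA, and 62 (31.0%) rose and 50 (25%) fell with 8AA. The median log2 fold change of the partners was between -0.00 and 0.02 in these comparisons. By position, the 73 head-to-head overlapping members tested in MV4-11 gave 23 higher and 4 lower with 8CA, the 64 head-to-head members apart from the partner gave 19 and 2, and the 51 tail-to-tail overlapping members gave 15 and 4. The 16 members inside their partner gave 2 and 2 with 8CA in MV4-11 (median -0.08) and 1 and 0 with 8AA (0.04), and the 19 in KG-1a gave 5 and 2 with 8CA and 8 and 2 with 8AA (0.33 with each). Of the 45 members in each line with no exon base shared with the partner in GENCODE, 10 (22.2%) rose and 2 fell with 8CA in MV4-11 and 12 (26.7%) rose and 0 fell with 8AA. In KG-1a 10 (22.2%) rose and 4 fell with 8CA, and 23 (51.1%) rose and 4 fell with 8AA. Their rising share with 8CA was thus near that of all genes in each line (21.2% and 23.4%), and their falling counts were lower. The 55 MV4-11 members whose span overlaps no other gene of the table gave 19 higher and 3 lower with 8CA and 16 and 1 with 8AA, and the 54 in KG-1a gave 15 and 3, and 23 and 7.

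The calls in the lines can be set against each other, since the lines share no library. Of 193 members tested in both, 61 rose with 8CA in MV4-11 and 69 in KG-1a, and 35 rose in both, which is 57.4% and 50.7% of each list (all genes 60.9% and 54.2%). None was called in opposite directions with 8CA (all genes 1.22%). With 8AA 51 and 90 rose and 33 in both (64.7% and 36.7%, all genes 54.9% and 29.2%), and MBNL1-AS1 and TMCC1-AS1, which are 1.04% of the members (all genes 1.98%), were called higher in MV4-11 and lower in KG-1a. Of the members that fell with 8CA, 3 did so in both lines, which is 30.0% of those in MV4-11 and 27.3% of those in KG-1a (all genes 66.5% and 63.0%). With 8AA 2 fell in both, or 100% and 11.1% (all genes 66.6% and 38.6%).

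At 8 h more members were called with 8AA than with 8CA. With 8CA in KG-1a no member was called by edgeR, where 0.700% of all genes rose and 0.181% fell (together 0.881%). An unadjusted p below 0.05 was reached by 26 members (11.9%, all genes 13.0%), and with no count filter 1 rose and 1 fell. Without either KG-1a 8AA 24 h library, which changes the estimate of the spread only, 3 rose and 1 fell. With 8CA in MV4-11 14 members rose and 4 fell (all genes 4.58% and 5.77%, together 10.4%), but 1 to 4 rose and 2 fell when any of the 4 libraries of that comparison was left out, and 9 rose without either 24 h untreated library. The 4 that fell were CIRBP-AS1, MAFG-AS1, OIP5-AS1 and VPS9D1-AS1, and by DESeq2 6 rose and 2 fell. With 8AA 42 rose and 7 fell in MV4-11 (all genes 13.6% and 15.6%, together 29.2%), and 57 rose and 25 fell in KG-1a (16.7% and 18.0%, together 34.7%). In MV4-11 the 8AA count of 42 became 23 and 24 without the 8 h untreated replicates A and B and 27 without the 8 h 8AA replicate B, the 7 that fell became 4 without the 8 h untreated or 8AA replicate B, and by DESeq2 18 rose. The 25 that fell in KG-1a became 15 without the 8 h 8AA replicate A.

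PSMA3-AS1 rose while the proteasome gene PSMA3 fell, with both drugs and in both lines. It lies at chromosome 14, 58732083 to 58764855, minus strand (hg19), and its end overlaps that of PSMA3 by 6645 bases with no shared exon base. At 24 h PSMA3-AS1 was at 37.0 and 37.5 CPM untreated, 52.1 and 46.7 CPM with 8CA and 49.1 and 47.8 CPM with 8AA in MV4-11. In KG-1a its level was 55.5 and 49.8 CPM untreated, 67.0 and 68.9 CPM with 8CA and 73.0 and 85.2 CPM with 8AA. All treated libraries of each line were above its untreated ones. The log2 fold change (± SE from the fit) was 0.39 ± 0.07 (adjusted p = 0.00035) with 8CA and 0.36 ± 0.07 (adjusted p = 0.0014) with 8AA in MV4-11, and 0.37 ± 0.07 (adjusted p = 0.00059) with 8CA and 0.58 ± 0.07 (adjusted p = 5.5e-06) with 8AA in KG-1a. PSMA3 was at 174 and 182 CPM untreated, 128 and 128 CPM with 8CA and 138 and 146 CPM with 8AA in MV4-11. In KG-1a it was at 123 and 125 CPM untreated, 81.1 and 84.6 CPM with 8CA and 81.5 and 80.1 CPM with 8AA, every treated library being below the untreated ones. The antisense change exceeded the sense change by 0.88 ± 0.08 (adjusted p = 2.2e-07) with 8CA and 0.70 ± 0.08 (adjusted p = 1.6e-05) with 8AA in MV4-11, and by 0.95 ± 0.09 (adjusted p = 2.6e-07) with 8CA and 1.21 ± 0.09 (adjusted p = 8.4e-09) with 8AA in KG-1a.

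**Figure D3:**
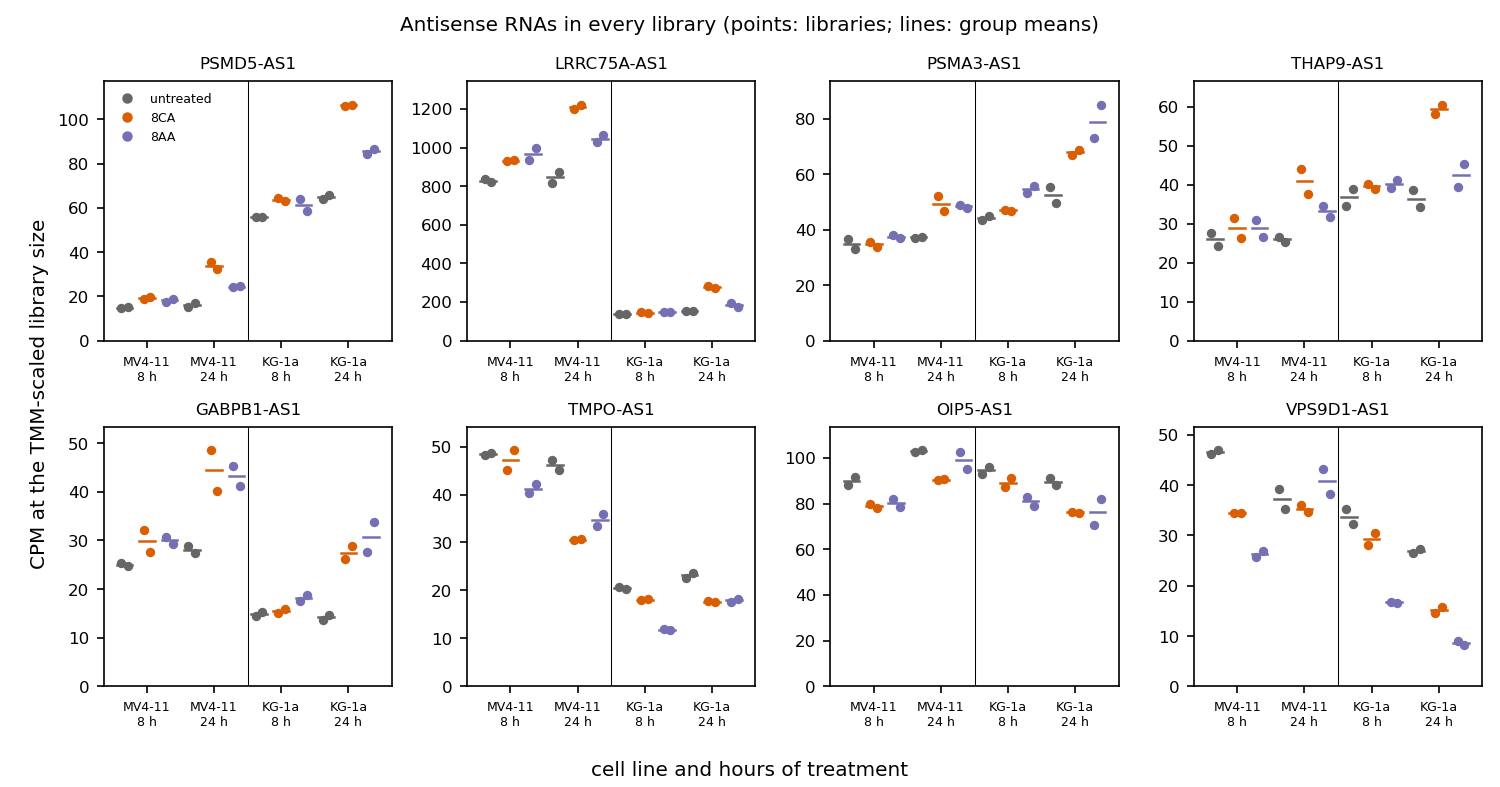
CPM of 8 antisense RNAs in every library, by line, time and treatment, with points for replicates A and B and lines for group means. PSMA3-AS1 in KG-1a rises from 55.5 and 49.8 CPM untreated at 24 h to 73.0 and 85.2 CPM with 8AA, and VPS9D1-AS1 falls from 26.6 and 27.3 to 8.92 and 8.27 CPM.

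PSMD5-AS1 (chromosome 9, 123605320 to 123616651, plus strand) starts 20 bases from PSMD5, which encodes a chaperone of proteasome assembly, and runs away from it. At 24 h it was at 15.4 and 17.1 CPM untreated, 35.5 and 32.3 CPM with 8CA and 24.3 and 24.6 CPM with 8AA in MV4-11. The KG-1a libraries held 63.9 and 65.6 CPM untreated, 106 and 107 CPM with 8CA and 84.5 and 86.6 CPM with 8AA, with no overlap between treated and untreated libraries. The log2 fold change was 1.04 ± 0.08 (adjusted p = 9.3e-08) with 8CA and 0.57 ± 0.08 (adjusted p = 0.00012) with 8AA in MV4-11, and 0.72 ± 0.05 (adjusted p = 3.9e-08) with 8CA and 0.40 ± 0.05 (adjusted p = 1.1e-05) with 8AA in KG-1a. PSMD5 itself changed less, by 0.19 ± 0.05 (adjusted p = 0.0082) with 8CA and 0.04 ± 0.05 (adjusted p = 0.61) with 8AA in MV4-11, and by -0.08 ± 0.05 (adjusted p = 0.2) with 8CA and -0.22 ± 0.05 (adjusted p = 0.00083) with 8AA in KG-1a. The pair difference was 0.85 ± 0.09 (adjusted p = 1.3e-06) with 8CA and 0.53 ± 0.09 (adjusted p = 0.00062) with 8AA in MV4-11, and 0.79 ± 0.07 (adjusted p = 6.2e-08) with 8CA and 0.63 ± 0.07 (adjusted p = 4.5e-07) with 8AA in KG-1a. With 8CA at 8 h in MV4-11 it was already higher, by 0.36 ± 0.09 (adjusted p = 0.015). PSMD5-AS1 (MV4-11, 8CA, 8 h, adjusted p = 0.098 without MV4-11 8CA 8 h replicate B) lost the call in at least 1 fit with a library left out, the largest adjusted p being given. PSMD5-AS1 (MV4-11, 8CA, 8 h, adjusted p = 0.05 by DESeq2) lost it under an alternative fit.

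LRRC75A-AS1, whose levels are given above, changed by 0.50 ± 0.04 (adjusted p = 4.1e-07) with 8CA and 0.29 ± 0.04 (adjusted p = 0.00019) with 8AA in MV4-11 at 24 h, and by 0.85 ± 0.05 (adjusted p = 8.1e-09) with 8CA and 0.25 ± 0.05 (adjusted p = 0.001) with 8AA in KG-1a. It lies at chromosome 17, 16342301 to 16373962, plus strand. Its treated libraries were all above the untreated ones of their line at 24 h, and 8CA gave the larger rise. GABPB1-AS1 (chromosome 15, 50646371 to 50650503, plus strand), opposite the start of GABPB1, a subunit of the transcription factor GABP with which it shares 424 exon bases, was at 28.8 and 27.4 CPM untreated, 48.5 and 40.2 CPM with 8CA and 45.4 and 41.3 CPM with 8AA in MV4-11 at 24 h. In KG-1a its level was 13.7 and 14.7 CPM untreated, 26.1 and 28.9 CPM with 8CA and 27.7 and 33.8 CPM with 8AA. It rose by 0.64 ± 0.09 (adjusted p = 4.7e-05) with 8CA and 0.61 ± 0.09 (adjusted p = 0.00019) with 8AA in MV4-11, and by 0.96 ± 0.10 (adjusted p = 1.8e-06) with 8CA and 1.11 ± 0.10 (adjusted p = 2.1e-07) with 8AA in KG-1a. Treated and untreated libraries did not overlap in either line. GABPB1 changed by -0.07 ± 0.08 (adjusted p = 0.53) with 8CA and -0.31 ± 0.08 (adjusted p = 0.011) with 8AA in MV4-11, and by 0.15 ± 0.07 (adjusted p = 0.071) with 8CA and -0.11 ± 0.07 (adjusted p = 0.17) with 8AA in KG-1a, so it fell only with 8AA in MV4-11 among these 4 comparisons. The pair difference was 0.71 ± 0.14 (adjusted p = 0.00056) with 8CA and 0.92 ± 0.14 (adjusted p = 0.00022) with 8AA in MV4-11, and 0.81 ± 0.13 (adjusted p = 5.4e-05) with 8CA and 1.22 ± 0.13 (adjusted p = 3.8e-07) with 8AA in KG-1a.

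THAP9-AS1 shares its start region with THAP9, a gene derived from a transposase. At 24 h it was at 26.6 and 25.3 CPM untreated, 44.1 and 37.6 CPM with 8CA and 34.6 and 31.7 CPM with 8AA in MV4-11. In KG-1a it was at 38.5 and 34.3 CPM untreated, 58.1 and 60.6 CPM with 8CA and 39.3 and 45.4 CPM with 8AA. It rose by 0.64 ± 0.10 (adjusted p = 0.00017) with 8CA and 0.33 ± 0.11 (adjusted p = 0.028) with 8AA in MV4-11, and by 0.70 ± 0.08 (adjusted p = 3.7e-06) with 8CA and 0.22 ± 0.08 (adjusted p = 0.036) with 8AA in KG-1a. The 8CA libraries stood clear of the others, and the 8AA libraries were nearer to the untreated ones. The partner THAP9 changed by 0.40 ± 0.13 (adjusted p = 0.021) with 8CA and 0.28 ± 0.13 (adjusted p = 0.13) with 8AA in MV4-11, and by 0.67 ± 0.11 (adjusted p = 9.9e-05) with 8CA and 0.65 ± 0.11 (adjusted p = 0.0001) with 8AA in KG-1a. The pair difference was 0.24 ± 0.19 (adjusted p = 0.34) with 8CA and 0.05 ± 0.19 (adjusted p = 0.87) with 8AA in MV4-11, and 0.03 ± 0.14 (adjusted p = 0.89) with 8CA and -0.43 ± 0.14 (adjusted p = 0.018) with 8AA in KG-1a. The genes share 199 exon bases in GENCODE. THAP9-AS1 (MV4-11, 8AA, 24 h, adjusted p = 0.23 without MV4-11 8AA 24 h replicate A), THAP9-AS1 (KG-1a, 8AA, 24 h, adjusted p = 0.3 without KG-1a untreated 24 h replicate B) and THAP9-AS1 against THAP9 (KG-1a, 8AA, 24 h, adjusted p = 0.14 without KG-1a untreated 24 h replicate A) lost the call in at least 1 fit with a library left out, the largest adjusted p being given. THAP9-AS1 (KG-1a, 8AA, 24 h, adjusted p = 0.073 in the fit of all 24 libraries) lost it under an alternative fit.

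STX18-AS1, whose promoter is printed above, starts 82 bases from STX18, a syntaxin gene of vesicle transport. It was at 1.01 and 0.603 CPM untreated, 1.29 and 1.67 CPM with 8CA and 1.84 and 1.58 CPM with 8AA in MV4-11 at 24 h and changed by 0.85 ± 0.33 (adjusted p = 0.048) with 8CA and 1.07 ± 0.33 (adjusted p = 0.022) with 8AA. The KG-1a level was 3.29 and 3.65 CPM untreated, 4.43 and 4.28 CPM with 8CA and 3.72 and 4.54 CPM with 8AA, and the RNA changed by 0.33 ± 0.16 (adjusted p = 0.092) with 8CA and 0.24 ± 0.16 (adjusted p = 0.2) with 8AA. STX18 changed by 0.32 ± 0.07 (adjusted p = 0.0014) with 8CA and -0.05 ± 0.07 (adjusted p = 0.6) with 8AA in MV4-11, and by 0.26 ± 0.07 (adjusted p = 0.0046) with 8CA and -0.03 ± 0.07 (adjusted p = 0.78) with 8AA in KG-1a. STX18-AS1 (MV4-11, 8CA, 24 h, adjusted p = 0.34 without MV4-11 untreated 24 h replicate B) and STX18-AS1 (MV4-11, 8AA, 24 h, adjusted p = 0.21 without MV4-11 untreated 24 h replicate B) lost the call in at least 1 fit with a library left out, the largest adjusted p being given. STX18-AS1 (MV4-11, 8CA, 24 h, adjusted p = 0.16 by DESeq2) and STX18-AS1 (MV4-11, 8AA, 24 h, adjusted p = 0.098 by DESeq2) lost it under an alternative fit.

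TMEM9B-AS1, head-to-head with the membrane protein gene TMEM9B (221 shared exon bases), was one of the members that rose most in MV4-11. It was at 2.36 and 2.55 CPM untreated, 6.16 and 6.12 CPM with 8CA and 6.11 and 6.53 CPM with 8AA at 24 h in MV4-11, a change of 1.30 ± 0.15 (adjusted p = 6.2e-06) with 8CA and 1.34 ± 0.15 (adjusted p = 1.4e-05) with 8AA. All 4 treated libraries were more than 6 CPM and both untreated ones under 3 CPM. In KG-1a it was at 3.87 and 3.34 CPM untreated, 6.35 and 6.14 CPM with 8CA and 3.92 and 4.73 CPM with 8AA, and changed by 0.79 ± 0.19 (adjusted p = 0.0026) with 8CA and 0.25 ± 0.20 (adjusted p = 0.3) with 8AA. TMEM9B changed by 0.00 ± 0.08 (adjusted p = 0.99) with 8CA and 0.06 ± 0.08 (adjusted p = 0.63) with 8AA in MV4-11. The pair difference there was 1.30 ± 0.15 (adjusted p = 5.4e-06) with 8CA and 1.28 ± 0.15 (adjusted p = 2.9e-05) with 8AA.

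GAS6, the ligand of the TYRO3, AXL and MERTK receptors, has 2 antisense RNAs in the set, GAS6-AS1 at its end, with 421 shared exon bases, and GAS6-AS2 at its start, and had no count in KG-1a. In MV4-11 at 24 h GAS6-AS1 was at 7.77 and 6.03 CPM untreated, 16.0 and 15.3 CPM with 8CA and 13.4 and 13.3 CPM with 8AA and rose by 1.16 ± 0.12 (adjusted p = 1.8e-06) with 8CA and 0.94 ± 0.12 (adjusted p = 4.6e-05) with 8AA. GAS6-AS2 was at 0.917 and 0.835 CPM untreated, 1.54 and 1.62 CPM with 8CA and 1.79 and 2.13 CPM with 8AA and changed by 0.83 ± 0.30 (adjusted p = 0.036) with 8CA and 1.13 ± 0.29 (adjusted p = 0.0084) with 8AA. Both antisense RNAs were higher in each treated library than in the untreated ones. GAS6 was at 85.9 and 86.7 CPM untreated, 78.9 and 79.9 CPM with 8CA and 103 and 98.2 CPM with 8AA, with changes of -0.14 ± 0.05 (adjusted p = 0.036) with 8CA and 0.20 ± 0.05 (adjusted p = 0.007) with 8AA, so it fell with 8CA and rose with 8AA. In KG-1a, where GAS6 had no count, GAS6-AS1 was at 2.27 and 2.35 CPM untreated, 2.37 and 3.04 CPM with 8CA and 1.16 and 1.99 CPM with 8AA and changed by 0.23 ± 0.23 (adjusted p = 0.44) with 8CA and -0.58 ± 0.25 (adjusted p = 0.063) with 8AA. GAS6-AS2 (MV4-11, 8CA, 24 h, adjusted p = 0.15 without MV4-11 untreated 24 h replicate B) and GAS6-AS2 (MV4-11, 8AA, 24 h, adjusted p = 0.067 without MV4-11 untreated 24 h replicate B) lost the call in at least 1 fit with a library left out, the largest adjusted p being given. GAS6-AS2 (MV4-11, 8CA, 24 h, adjusted p = 0.12 by DESeq2) lost it under an alternative fit.

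In KG-1a, PAN3-AS1, FAM13A-AS1 and H1FX-AS1 were among the members that rose most with both drugs. PAN3-AS1, opposite the start of PAN3, a subunit of a deadenylase, was at 2.66 and 2.61 CPM untreated, 5.46 and 5.80 CPM with 8CA and 6.68 and 7.52 CPM with 8AA at 24 h and rose by 1.09 ± 0.17 (adjusted p = 9.3e-05) with 8CA and 1.42 ± 0.16 (adjusted p = 3.2e-06) with 8AA. In MV4-11 it was at 15.9 and 14.8 CPM untreated, 18.1 and 17.3 CPM with 8CA and 16.4 and 15.4 CPM with 8AA and changed by 0.18 ± 0.09 (adjusted p = 0.1) with 8CA and 0.03 ± 0.09 (adjusted p = 0.83) with 8AA. The change in KG-1a exceeded that in MV4-11 in a test of the difference, given with the line differences below. PAN3 itself was called higher in all 4 comparisons at 24 h. With 8CA the pair difference by the edgeR test was 0.67 (adjusted p = 0.018) in KG-1a and -0.34 (adjusted p = 0.045) in MV4-11. Both calls were lost in some fits with a library left out. H1FX-AS1, head-to-head with a linker histone gene with which it shares 345 exon bases, was at 0.387 and 0.574 CPM untreated, 1.21 and 1.47 CPM with 8CA and 1.60 and 2.03 CPM with 8AA in KG-1a and rose by 1.48 ± 0.34 (adjusted p = 0.0023) with 8CA and 1.90 ± 0.32 (adjusted p = 0.00013) with 8AA. H1FX rose too, by 0.63 ± 0.06 (adjusted p = 5.8e-07) with 8CA and 0.28 ± 0.06 (adjusted p = 0.001) with 8AA. FAM13A-AS1, tail-to-tail with FAM13A (825 shared exon bases), was at 2.90 and 2.87 CPM untreated, 5.55 and 5.57 CPM with 8CA and 6.84 and 8.42 CPM with 8AA in KG-1a and rose by 0.95 ± 0.16 (adjusted p = 0.00023) with 8CA and 1.39 ± 0.15 (adjusted p = 2.2e-06) with 8AA, while FAM13A changed by 0.00 ± 0.09 (adjusted p = 0.99) with 8CA and 0.20 ± 0.09 (adjusted p = 0.067) with 8AA. None of these 3 members had an untreated library as high as its treated ones.

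INHBA-AS1 had counts in MV4-11 alone, at 6.56 and 7.84 CPM untreated, 12.1 and 10.8 CPM with 8CA and 8.32 and 9.60 CPM with 8AA at 24 h. It rose by 0.65 ± 0.13 (adjusted p = 0.001) with 8CA, and its change was 0.29 ± 0.14 (adjusted p = 0.14) with 8AA. INHBA, with no shared exon base, fell with both drugs, at -0.68 ± 0.09 (adjusted p = 2.1e-05) with 8CA and -0.77 ± 0.09 (adjusted p = 2.2e-05) with 8AA. The pair difference was 1.33 ± 0.18 (adjusted p = 2.2e-05) with 8CA and 1.06 ± 0.18 (adjusted p = 0.00065) with 8AA, so the antisense change was above that of the activin gene. NDUFA6-AS1, which starts 48 bases from the respiratory complex I gene NDUFA6, had a change above that of the partner in KG-1a, by 1.39 ± 0.24 (adjusted p = 0.00014) with 8CA and 0.75 ± 0.25 (adjusted p = 0.028) with 8AA. It was at 1.06 and 0.678 CPM untreated, 1.70 and 2.09 CPM with 8CA and 1.64 and 1.28 CPM with 8AA, and NDUFA6 changed by -0.29 ± 0.06 (adjusted p = 0.00051) with 8CA and -0.01 ± 0.05 (adjusted p = 0.91) with 8AA. LAMTOR5-AS1, opposite a gene of the Ragulator complex that activates mTORC1 and sharing 418 exon bases with it, differed from LAMTOR5 by 1.34 ± 0.23 (adjusted p = 0.00012) with 8CA and 1.21 ± 0.23 (adjusted p = 0.00061) with 8AA in KG-1a. LAMTOR5 fell there, at -0.40 ± 0.06 (adjusted p = 5.9e-05) with 8CA and -0.45 ± 0.06 (adjusted p = 1.5e-05) with 8AA, and the antisense RNA was at 0.677 and 0.887 CPM untreated, 1.39 and 1.62 CPM with 8CA and 1.36 and 1.28 CPM with 8AA. NDUFA6-AS1 against NDUFA6 (KG-1a, 8AA, 24 h, adjusted p = 0.27 without KG-1a untreated 24 h replicate B) lost the call in at least 1 fit with a library left out, the largest adjusted p being given. NDUFA6-AS1 against NDUFA6 (KG-1a, 8AA, 24 h, adjusted p = 0.07 by limma on the log2 ratio) lost it under an alternative fit.

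TMPO-AS1 fell in both lines with both drugs. It lies at chromosome 12, 98906751 to 98910004, minus strand and starts opposite TMPO, which encodes proteins of the nuclear lamina and inner nuclear membrane, and the genes share 713 exon bases. At 24 h it was at 47.2 and 45.0 CPM untreated, 30.4 and 30.8 CPM with 8CA and 33.4 and 35.9 CPM with 8AA in MV4-11. The KG-1a libraries held 22.7 and 23.6 CPM untreated, 17.7 and 17.5 CPM with 8CA and 17.6 and 18.3 CPM with 8AA, every treated library being below the untreated ones. Its log2 fold changes were -0.61 ± 0.06 (adjusted p = 2.4e-06) with 8CA and -0.43 ± 0.06 (adjusted p = 0.00013) with 8AA in MV4-11, and -0.39 ± 0.07 (adjusted p = 0.00035) with 8CA and -0.36 ± 0.07 (adjusted p = 0.00047) with 8AA in KG-1a. With 8AA in KG-1a the 8 h change was -0.78 ± 0.08 (adjusted p = 2.2e-06). TMPO changed by -0.22 ± 0.07 (adjusted p = 0.025) with 8CA and -0.21 ± 0.07 (adjusted p = 0.048) with 8AA in MV4-11, and by -0.05 ± 0.05 (adjusted p = 0.5) with 8CA and 0.15 ± 0.05 (adjusted p = 0.031) with 8AA in KG-1a. The pair difference was -0.34 ± 0.09 (adjusted p = 0.005) with 8CA and -0.51 ± 0.09 (adjusted p = 0.00014) with 8AA in KG-1a. TMPO-AS1 against TMPO (KG-1a, 8CA, 24 h, adjusted p = 0.057 without KG-1a untreated 24 h replicate B) lost the call in at least 1 fit with a library left out, the largest adjusted p being given.

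OIP5-AS1, also called cyrano, a conserved RNA that binds a microRNA, was at 102 and 103 CPM untreated, 90.1 and 90.6 CPM with 8CA and 103 and 94.9 CPM with 8AA in MV4-11 at 24 h. In KG-1a its level was 91.0 and 88.0 CPM untreated, 76.4 and 76.0 CPM with 8CA and 70.6 and 82.1 CPM with 8AA. Its changes were small, -0.21 ± 0.05 (adjusted p = 0.0042) with 8CA and -0.08 ± 0.05 (adjusted p = 0.28) with 8AA in MV4-11, and -0.23 ± 0.06 (adjusted p = 0.007) with 8CA and -0.23 ± 0.06 (adjusted p = 0.0059) with 8AA in KG-1a. OIP5, a centromere protein gene that ends 9670 bases away in the table and shares 470 exon bases in GENCODE, did not pass the test in any of these 4 comparisons. FOXN3-AS1 lies inside FOXN3, a forkhead repressor, with no shared exon base. It was at 2.22 and 1.53 CPM untreated, 0.874 and 0.9 CPM with 8CA and 1.56 and 1.14 CPM with 8AA in MV4-11. In KG-1a it was at 2.18 and 1.62 CPM untreated, 0.984 and 1.05 CPM with 8CA and 0.96 and 0.709 CPM with 8AA. It changed by -1.09 ± 0.28 (adjusted p = 0.005) with 8CA and -0.48 ± 0.26 (adjusted p = 0.18) with 8AA in MV4-11, and by -0.90 ± 0.26 (adjusted p = 0.0086) with 8CA and -1.17 ± 0.26 (adjusted p = 0.0015) with 8AA in KG-1a. FOXN3 moved the other way in 2 of the 4 comparisons, by 0.26 ± 0.04 (adjusted p = 0.00024) with 8CA in MV4-11 and 0.52 ± 0.05 (adjusted p = 6.1e-07) with 8AA in KG-1a. It was not called with 8CA in KG-1a, where FOXN3-AS1 fell, or with 8AA in MV4-11. OIP5-AS1 (KG-1a, 8AA, 24 h, adjusted p = 0.053 without KG-1a 8AA 24 h replicate A), FOXN3-AS1 (MV4-11, 8CA, 24 h, adjusted p = 0.082 without MV4-11 untreated 24 h replicate A) and FOXN3-AS1 (KG-1a, 8CA, 24 h, adjusted p = 0.11 without KG-1a untreated 24 h replicate A) lost the call in at least 1 fit with a library left out, the largest adjusted p being given. OIP5-AS1 (KG-1a, 8AA, 24 h, adjusted p = 0.094 with library size alone) and FOXN3-AS1 (KG-1a, 8CA, 24 h, adjusted p = 0.07 by DESeq2) lost it under an alternative fit.

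VPS9D1-AS1 (chromosome 16, 89778264 to 89784573, plus strand) lies inside VPS9D1, shares 518 exon bases with it and was the more abundant of the pair. In KG-1a it was at 26.6 and 27.3 CPM untreated, 14.5 and 15.7 CPM with 8CA and 8.92 and 8.27 CPM with 8AA at 24 h, and fell, at -0.83 ± 0.08 (adjusted p = 9.3e-07) with 8CA and -1.64 ± 0.09 (adjusted p = 1.4e-09) with 8AA. VPS9D1 rose there, by 0.60 ± 0.18 (adjusted p = 0.01) with 8CA and 0.77 ± 0.17 (adjusted p = 0.0014) with 8AA, and the pair difference was -1.43 ± 0.20 (adjusted p = 1.3e-05) with 8CA and -2.41 ± 0.20 (adjusted p = 2.8e-08) with 8AA. In MV4-11 VPS9D1-AS1 was called below untreated at 8 h and not at 24 h, where its untreated level was lower than at 8 h. It was at 46.1 and 46.9 CPM untreated, 34.5 and 34.5 CPM with 8CA and 25.8 and 26.9 CPM with 8AA at 8 h, with changes of -0.44 ± 0.07 (adjusted p = 0.0015) with 8CA and -0.85 ± 0.07 (adjusted p = 1.3e-06) with 8AA, and at 39.2 and 35.3 CPM untreated, 36.0 and 34.6 CPM with 8CA and 43.3 and 38.3 CPM with 8AA at 24 h, with changes of -0.10 ± 0.07 (adjusted p = 0.3) with 8CA and 0.11 ± 0.07 (adjusted p = 0.25) with 8AA.

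MAFG-AS1, which starts 117 bases from MAFG, a small MAF transcription factor gene, was at 5.55 and 5.29 CPM untreated, 3.20 and 4.14 CPM with 8CA and 3.49 and 3.86 CPM with 8AA in MV4-11 at 24 h. The KG-1a libraries held 2.81 and 2.40 CPM untreated, 2.64 and 2.57 CPM with 8CA and 1.16 and 0.898 CPM with 8AA. It changed by -0.59 ± 0.16 (adjusted p = 0.009) with 8CA and -0.58 ± 0.17 (adjusted p = 0.016) with 8AA in MV4-11, and by -0.00 ± 0.19 (adjusted p = 1) with 8CA and -1.32 ± 0.23 (adjusted p = 0.0002) with 8AA in KG-1a, where the 8CA libraries overlapped the untreated ones and the 8AA libraries were the lowest. MAFG rose in KG-1a by 0.45 ± 0.05 (adjusted p = 2.3e-06) with 8CA and 0.39 ± 0.05 (adjusted p = 8.1e-06) with 8AA. KDM4A-AS1, at the end of the histone demethylase gene KDM4A (464 shared exon bases), was at 3.34 and 3.91 CPM untreated, 1.83 and 1.90 CPM with 8CA and 2.04 and 1.84 CPM with 8AA in KG-1a and fell, at -0.95 ± 0.21 (adjusted p = 0.0016) with 8CA and -0.89 ± 0.20 (adjusted p = 0.0018) with 8AA, while KDM4A rose by 0.63 ± 0.05 (adjusted p = 1.6e-07) with 8CA and 0.33 ± 0.05 (adjusted p = 9.5e-05) with 8AA. The pair difference there was -1.58 ± 0.19 (adjusted p = 2.9e-06) with 8CA and -1.21 ± 0.18 (adjusted p = 2.8e-05) with 8AA. MAFG-AS1 (MV4-11, 8CA, 24 h, adjusted p = 0.12 without MV4-11 8CA 24 h replicate A) and MAFG-AS1 (MV4-11, 8AA, 24 h, adjusted p = 0.1 without MV4-11 8AA 24 h replicate A) lost the call in at least 1 fit with a library left out, the largest adjusted p being given. MAFG-AS1 (MV4-11, 8CA, 24 h, adjusted p = 0.054 by DESeq2) and MAFG-AS1 (MV4-11, 8AA, 24 h, adjusted p = 0.079 by DESeq2) lost it under an alternative fit.

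The difference between the antisense and the sense change was tested in 1 model per pair. At 24 h in MV4-11 it was called in 38.9% of 193 pairs with 8CA (57 with the antisense change above, 18 below), where 37.6% of all 4038 opposite-strand pairs within 5000 bases were called in either direction. With 8AA 24.9% were called (45 above, 3 below, background 23.1%). In KG-1a 36.4% of 187 pairs were called with 8CA (54 and 14, background 42.7%), and 47.6% with 8AA (75 and 14, background 44.2%). Without the 24 h 8AA replicates A and B of KG-1a, 71 and 75 pairs were above and 18 and 17 below with 8AA. The share of pairs whose changes differed was thus near the background. In most of the called pairs the antisense change was above that of the partner, and the background, taken in either direction, gives no reference for this. In MV4-11 the 45 pairs above with 8AA became 18 without the 24 h 8AA replicate A and 24 and 22 without the 24 h untreated replicates A and B, and 29 by limma on the log2 ratio. The 57 with 8CA became 33 without the 24 h 8CA replicate A. The pairs below became 7 (8CA, MV4-11) and 0 (8AA, MV4-11) without the 24 h untreated replicate A, 9 and 1 without the 24 h replicate A of the drug, 1 without the 24 h 8AA replicate B, and 9 and 8 (8CA, KG-1a) without the 24 h untreated replicates A and B.

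The genes of a pair were called in opposite directions in 8.29%, 4.15%, 11.2% and 16.6% of the pairs (MV4-11 8CA and 8AA, KG-1a 8CA and 8AA), against 9.86%, 2.72%, 12.3% and 9.58% of all opposite-strand pairs. The antisense RNA was higher and the partner lower in 13, 8, 18 and 25 pairs. Both genes were called higher in 18, 6, 24 and 28 pairs (9.33%, 3.11%, 12.8% and 14.97%, against 5.89%, 1.86%, 7.94% and 5.72% of all pairs). The antisense RNA fell and the partner rose in 3, 0, 3 and 6 pairs. With 8CA these were FOXN3-AS1, UBAC2-AS1 and ZEB2-AS1 in MV4-11, and KDM4A-AS1, VPS9D1-AS1 and ZBTB11-AS1 in KG-1a, some of them named after their values were seen. The 6 with 8AA in KG-1a included FOXN3-AS1, KDM4A-AS1, MAFG-AS1 and VPS9D1-AS1, and the others are not listed here. Both fell in 2 (RNASEH1-AS1 and TMPO-AS1), 1 (TMPO-AS1), 2 (RAB30-AS1 and THAP7-AS1) and 4 (NOP14-AS1, RNASEH1-AS1, USP2-AS1 and ZBTB11-AS1) pairs, where 5.30%, 2.13%, 5.80% and 6.21% of all pairs did. Across all named pairs the Pearson correlation of the changes was between 0.02 and 0.07, a description over pairs of the same libraries that mixes positions with different signs. With 8CA it was -0.27 and -0.14 over the tail-to-tail overlapping pairs (38 in MV4-11, 33 in KG-1a) and 0.24 and 0.20 over the head-to-head overlapping ones (67 and 66). With 8AA it was -0.12 and 0.11 over the tail-to-tail pairs and 0.07 and 0.09 over the head-to-head ones, so the tail-to-tail sign differed between the lines. Over the 15 pairs in KG-1a with the antisense RNA inside its partner it was -0.49 with 8CA and -0.53 with 8AA. Over the 13 such pairs in MV4-11 it was -0.08 and -0.18.

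**Figure D4:**
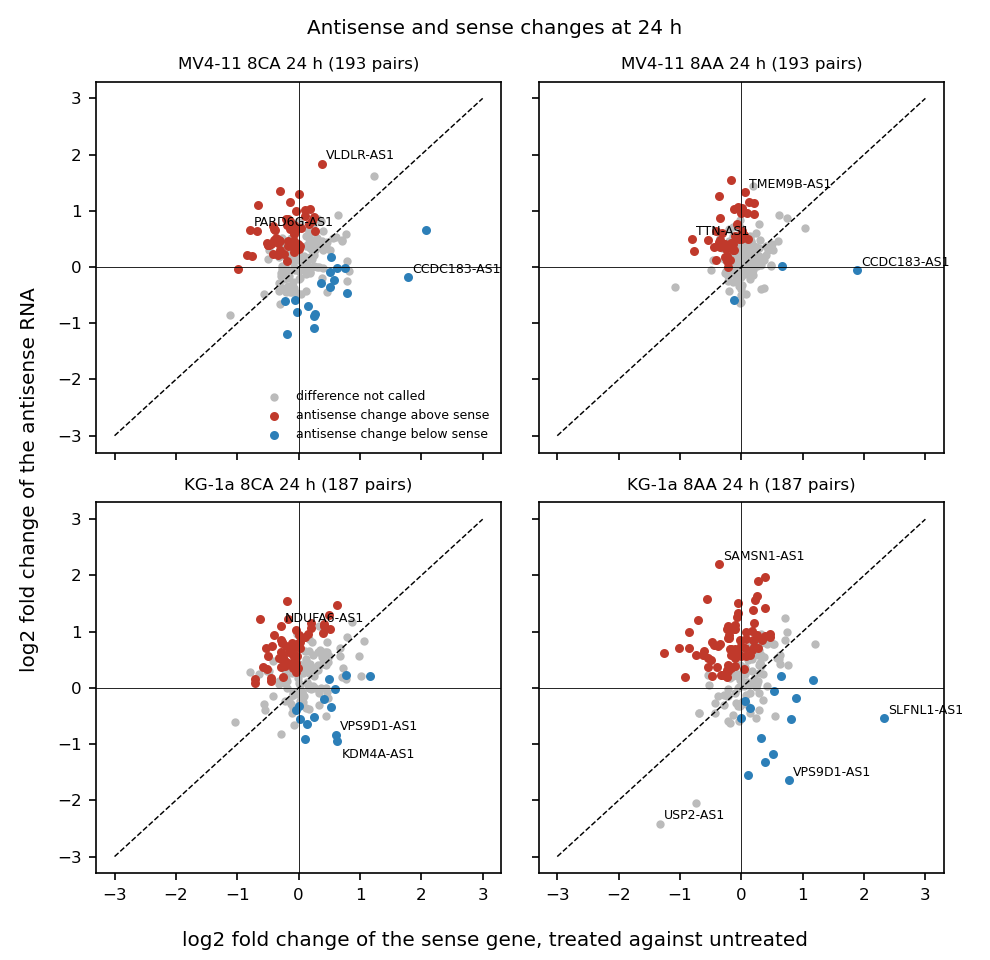
Log2 fold change of the antisense RNA (y) against that of its sense partner (x) at 24 h, one point a pair, with a panel for each line and drug and colour for the call of the pair difference. Of 193 MV4-11 pairs 57 (8CA) and 45 (8AA) were called above the diagonal, and of 187 KG-1a pairs 54 and 75 were.

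The drugs were given at the same dose and for the same hours, so they can be compared within a line without the untreated libraries. At 24 h 8AA gave a lower level than 8CA in 10 members and a higher one in 9 in MV4-11, where 21.2% of all genes differed, with 9.48% lower and 11.7% higher. In KG-1a 21 members were lower and 36 higher, where 42.0% of all genes differed (21.7% and 20.3%). At 8 h 1 was lower and 6 were higher in MV4-11 (all genes 6.66%, with 3.70% and 2.96%), and 18 and 39 in KG-1a (30.4%, with 15.8% and 14.7%). The 19 members called at 24 h in MV4-11 became 7 to 10 without any of the 4 libraries compared, the 7 at 8 h became 2 to 4, and the 57 at 8 h in KG-1a became 31 without the 8AA replicate B and 33 and 36 without the 8CA replicates A and B. Without the 24 h 8AA replicates A and B of KG-1a, 61 and 55 members differed there at 24 h. By DESeq2 the counts were 8 and 34 at 24 h and 3 and 35 at 8 h in MV4-11 and KG-1a. VLDLR-AS1, head-to-head with the lipoprotein receptor gene VLDLR (738 shared exon bases), was at 1.01 and 0.696 CPM untreated, 3.41 and 2.79 CPM with 8CA and 0.782 and 1.04 CPM with 8AA in MV4-11 at 24 h, high in the 8CA libraries only. The 8AA minus 8CA difference on the log2 scale was -1.77 ± 0.26 (adjusted p = 0.00024), and VLDLR changed by 0.38 ± 0.05 (adjusted p = 2.3e-05) with 8CA and -0.02 ± 0.05 (adjusted p = 0.85) with 8AA. ZEB2-AS1, which shares 1299 exon bases with ZEB2 and was at 4.54 and 4.59 CPM untreated, 2.50 and 2.70 CPM with 8CA and 4.41 and 5.20 CPM with 8AA, was low with 8CA, a difference of 0.88 ± 0.17 (adjusted p = 0.002). The 8CA and 8AA libraries of each did not overlap. HMGN3-AS1, antisense to a nucleosome-binding protein gene, differed by 1.05 ± 0.30 (adjusted p = 0.021) in MV4-11. HMGN3-AS1 (MV4-11, 8AA minus 8CA, adjusted p = 0.14 without MV4-11 8AA 24 h replicate A) lost the call in at least 1 fit with a library left out, the largest adjusted p being given. HMGN3-AS1 (MV4-11, 8AA minus 8CA, adjusted p = 0.15 by DESeq2) lost it under an alternative fit.

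SAMSN1-AS1 (chromosome 21, 15954523 to 15970624, plus strand), opposite the start of SAMSN1, an adaptor protein of blood cells, with 90 shared exon bases, was among the members that rose most with 8AA in KG-1a, by 2.20 ± 0.16 (adjusted p = 2.0e-08). C21orf62-AS1 was at 0.436 and 0.313 CPM untreated, 0.537 and 0.618 CPM with 8CA and 1.68 and 2.08 CPM with 8AA in KG-1a and rose with 8AA by 2.29 ± 0.36 (adjusted p = 7.3e-05). SAMSN1-AS1 was at 4.40 and 3.86 CPM untreated, 4.43 and 7.09 CPM with 8CA and 18.2 and 19.95 CPM with 8AA there at 24 h, and the drugs differed by 1.73 ± 0.14 (adjusted p = 1.7e-07). The lower 8CA library was close to the untreated ones, the other was above them, and the 8AA libraries were above all others. SAMSN1 changed by -0.08 ± 0.05 (adjusted p = 0.18) with 8CA and -0.36 ± 0.05 (adjusted p = 1.0e-05) with 8AA, and with 8AA the antisense change exceeded the sense change by 2.56 ± 0.15 (adjusted p = 3.0e-10). MAN1B1-AS1, next to the start of an endoplasmic reticulum mannosidase gene, was at 1.60 and 1.72 CPM untreated, 1.92 and 2.19 CPM with 8CA and 0.72 and 0.378 CPM with 8AA, low with 8AA, a difference of -1.86 ± 0.31 (adjusted p = 0.00021). USP2-AS1, beside the deubiquitinase gene USP2, was at 2.08 and 1.41 CPM untreated, 1.70 and 0.571 CPM with 8CA and 0.36 and 0.284 CPM with 8AA and differed by -1.81 ± 0.50 (adjusted p = 0.0088), and USP2 itself fell, at -1.03 ± 0.17 (adjusted p = 0.00013) with 8CA and -1.32 ± 0.17 (adjusted p = 1.2e-05) with 8AA. USP2-AS1 (KG-1a, 8AA minus 8CA) lost the call in at least 1 fit with a library left out. Without KG-1a 8CA 24 h replicate A its drug difference was -0.80.

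TNRC6C-AS1, at the end of TNRC6C, whose protein acts in silencing by microRNAs (1438 shared exon bases), was at 12.001 and 13.3 CPM untreated, 27.9 and 28.2 CPM with 8CA and 16.8 and 16.7 CPM with 8AA in KG-1a at 24 h, and the drugs differed by -0.74 ± 0.08 (adjusted p = 2.1e-06), with 8CA the higher. In the same contrast C21orf62-AS1 differed by 1.68 ± 0.32 (adjusted p = 0.00061), MAFG-AS1 by -1.32 ± 0.23 (adjusted p = 0.00027) and VPS9D1-AS1 by -0.81 ± 0.09 (adjusted p = 6.1e-06). The difference was not called for some of the members described above. For PSMA3-AS1 in MV4-11 it was -0.03 ± 0.07, with an interval of 2 SE from -0.17 to 0.11. For OIP5-AS1 in KG-1a it was -0.00 ± 0.06, with an interval of 2 SE from -0.13 to 0.13, and for TMPO-AS1 in KG-1a 0.03 ± 0.07, with an interval of 2 SE from -0.12 to 0.17. For GABPB1-AS1 in MV4-11 it was -0.04 ± 0.09, with an interval of 2 SE from -0.21 to 0.14. A difference of the drugs within these intervals was not detectable with 2 libraries a group.

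**Figure D5:**
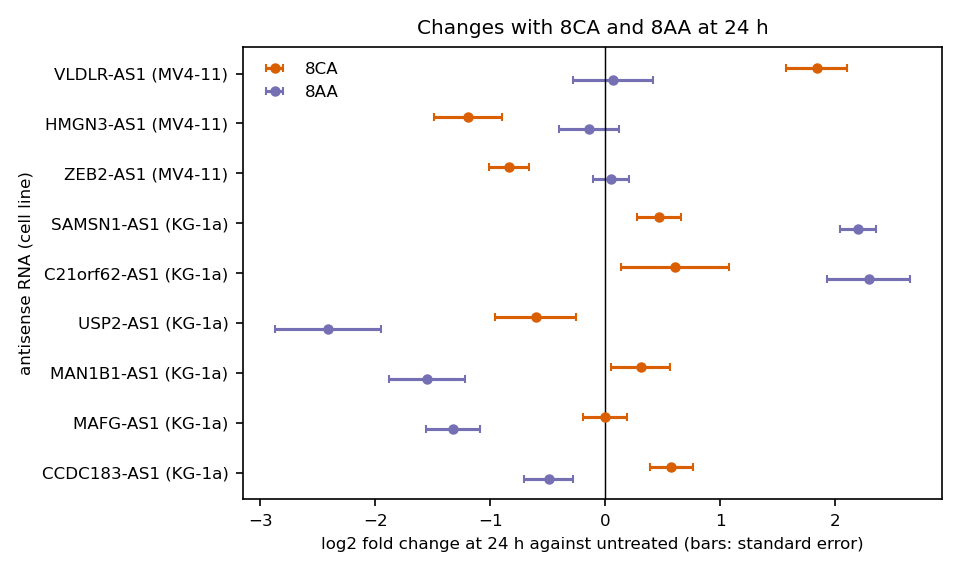
Log2 fold change at 24 h against untreated, with SE, of 9 antisense RNAs with 8CA and with 8AA, with the cell line given beside each name. VLDLR-AS1 in MV4-11 was at 1.84 with 8CA and 0.07 with 8AA, and SAMSN1-AS1 in KG-1a was at 0.47 and 2.20.

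The 24 h change differed from the 8 h change in 16 members with 8CA (11 higher, 5 lower) and 6 with 8AA (5 and 1) in MV4-11. Of all genes 16.3% did with 8CA (6.48% higher, 9.83% lower) and 4.63% with 8AA (2.51% and 2.12%). In KG-1a the counts were 36 (33 and 3) with 8CA and 31 (27 and 4) with 8AA. Of all genes 23.9% (11.2% and 12.7%) and 18.3% (7.64% and 10.7%) were called. Single libraries moved these counts to 8 (without the MV4-11 24 h 8CA replicate A) and 10 (without the 8 h untreated replicate A) with 8CA in MV4-11, and to 2 or 3 with 8AA without any of 6 libraries. In KG-1a they were 20 to 23 with 8CA without the 8 h untreated replicate B, the 24 h untreated replicate A or either 24 h 8CA library, and 18 and 20 with 8AA without the first and the second of these. With 8AA they were 41 and 35 without the 24 h 8AA replicates A and B. TNRC6C-AS1 was a case where the sign changed. With 8AA in KG-1a it was at 11.5 and 10.9 CPM untreated and 7.04 and 8.00 CPM treated at 8 h, a change of -0.56 ± 0.10 (adjusted p = 0.00048), and its 24 h change was 0.41 ± 0.09 (adjusted p = 0.00095). The difference between the times was 0.97 ± 0.13 (adjusted p = 0.0002). With 8CA in KG-1a, LRRC75A-AS1 rose more at 24 h, by 0.78 ± 0.08 (adjusted p = 5.2e-06), and so did GABPB1-AS1, by 0.89 ± 0.15 (adjusted p = 0.0005).

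The 24 h change differed between the lines in 15 members with 8CA (9 lower and 6 higher in MV4-11) and in 39 with 8AA (23 and 16). Of all genes 11.2% were called with 8CA (5.44% lower, 5.76% higher) and 22.3% with 8AA (8.51% and 13.8%). The 15 became 8 without either 24 h untreated KG-1a library and 9 without the MV4-11 24 h untreated or 8CA replicate A, and the 39 became 24 without the MV4-11 24 h untreated replicate B and 24 by DESeq2. It was 38 without either KG-1a 24 h 8AA library. MBNL1-AS1, head-to-head with MBNL1, a splicing factor gene, with 1140 shared exon bases, was at 7.62 and 10.6 CPM untreated, 14.2 and 15.3 CPM with 8CA and 12.8 and 13.0 CPM with 8AA in MV4-11 and at 2.95 and 2.97 CPM untreated, 2.46 and 2.14 CPM with 8CA and 1.88 and 1.99 CPM with 8AA in KG-1a. Treated libraries were above the untreated ones in MV4-11 and below them in KG-1a. It changed by 0.67 ± 0.13 (adjusted p = 0.00051) with 8CA and 0.48 ± 0.13 (adjusted p = 0.011) with 8AA in MV4-11, and by -0.36 ± 0.20 (adjusted p = 0.15) with 8CA and -0.62 ± 0.20 (adjusted p = 0.018) with 8AA in KG-1a. The MV4-11 minus KG-1a difference was 1.05 ± 0.24 (adjusted p = 0.0056) with 8CA and 1.12 ± 0.25 (adjusted p = 0.0019) with 8AA. PAN3-AS1 differed by -0.89 ± 0.19 (adjusted p = 0.0025) and -1.37 ± 0.18 (adjusted p = 5.6e-06), and VPS9D1-AS1 with 8AA by 1.78 ± 0.11 (adjusted p = 3.4e-10). MBNL1-AS1 (MV4-11, 8AA, 24 h, adjusted p = 0.16 without MV4-11 untreated 24 h replicate A) and MBNL1-AS1 (KG-1a, 8AA, 24 h, adjusted p = 0.069 without KG-1a 8AA 24 h replicate A) lost the call in at least 1 fit with a library left out, the largest adjusted p being given. MBNL1-AS1 (KG-1a, 8AA, 24 h, adjusted p = 0.099 by DESeq2) lost it under an alternative fit.

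Genes of the nuclear exosome and of the NEXT and PAXT adaptors, which bring unstable nuclear RNAs to it, were read from a list of 24 tested genes. The list also held ZC3H18, NCBP1, NCBP2, SRRT, PAPD5 and ZCCHC7. At 24 h in MV4-11 10 (41.7%) fell and 4 (16.7%) rose with 8CA, and 10 (41.7%) fell and 1 (4.17%) rose with 8AA, where 22.7% and 15.3% of all genes fell. In KG-1a 7 (29.2%) fell and 4 (16.7%) rose with 8CA, near the 24.0% and 23.4% of all genes, and 14 (58.3%) fell and 3 (12.5%) rose with 8AA, where 26.6% of all genes fell. Their median log2 fold changes were -0.11, -0.13, -0.09 and -0.23, where those of all genes tested were 0.00, 0.00, 0.01 and 0.01. Named after their values were seen, EXOSC2, an exosome cap subunit that binds RNA, was lower in all 4, at -0.61 (8CA) and -0.29 (8AA) in MV4-11 and at -0.35 and -0.62 in KG-1a. EXOSC3, another cap subunit, was also lower in all 4, at -0.28, -0.32, -0.30 and -0.34. EXOSC7 and EXOSC9 were called lower in all 4 too. EXOSC1 rose with 8CA, by 0.18 in MV4-11 and 0.28 in KG-1a, and so did ZCCHC7, by 0.43 and 0.34. EXOSC8 rose with 8CA in KG-1a (0.24) and fell with 8AA in MV4-11 (-0.30) and KG-1a (-0.26). The NEXT and PAXT genes were mixed. ZFC3H1 rose with both drugs in MV4-11 (0.27 and 0.25) and with 8AA in KG-1a (0.33). ZCCHC8 rose with 8CA in MV4-11 (0.28) and KG-1a (0.66), and RBM7 rose with 8AA in KG-1a (0.34). PABPN1 rose with 8AA (0.25) and fell with 8CA (-0.20) in KG-1a. SKIV2L2 fell with 8AA in MV4-11 (-0.14) and KG-1a (-0.52). More genes of the list fell than rose in each comparison while more antisense RNAs rose than fell, and a link between them was not tested.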

How the data were processed

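RNA-seq was done on untreated, 8CA-treated and 8AA-treated MV4-11 and KG-1a cells. Per the submitters' processing notes, the authors used Trimmomatic, STAR 2.6.0 and HTSeq 0.11.1 and deposited raw counts per gene. The builds hg19 and hg38 are listed without a role, and the table's coordinates fit hg19. The annotation and the strand setting were not stated in the sources used here. Gene lengths and spans are those of the deposited table.

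Members and lists were chosen with earlier results of these data known. CPM values were scaled by TMM. Counts were tested per line over its 12 libraries with edgeR 4.0.16 (quasi-likelihood, filterByExpr at 10 counts, TMM, R 4.3.3), and p-values were adjusted by Benjamini-Hochberg over all genes tested (12800 in MV4-11, 12711 in KG-1a) at 0.05. Line differences came from 1 fit of all 24 libraries. SE was the log2 fold change divided by the root of F. All p-values are two-sided. Pair differences were tested by an edgeR interaction term over all opposite-strand pairs within 5000 bases and the named pairs. Background percentages are over all genes or pairs tested. DESeq2 1.42.0, limma 3.58.1, other scalings and filters, a replicate block and leaving out each library were alternatives. In simulated counts for the 24 h comparisons, 89.9% (8CA) and 92% (8AA) of genes changed 2-fold were called in MV4-11, and 91.9% and 90% in KG-1a, and of those changed 1.5-fold 82%, 82%, 80% and 74%. The simulation changed 199, 200, 199 and 200 of 12724, 12726, 12582 and 12623 genes tested, a far smaller share than was called in the data. In the same order 16, 10, 20 and 12 unchanged genes were called falsely. Of 132, 116, 107 and 107 simulated pairs with 1 gene changed, 66.7%, 76.7%, 70.1% and 60.7% were recovered. Of pairs with neither gene changed, 7, 18, 5 and 1 were called falsely.

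The named members were the 8 with the highest mean CPM. At 24 h in each line they were also the 5 called higher and 5 called lower with both drugs by the smaller change, the 3 with the largest called drug difference, and for each drug the 3 pairs with the largest difference. To these came the 4 with the largest untreated line difference in each direction, the 3 per drug with the largest line difference of the 24 h change, and the 3 per line and drug with the largest difference between times. All but the first rule needed a mean log2 CPM of at least 0, and some that the rules named are given in counts only. Promoter sequences are from RefSeq (GRCh38.p14).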

Additional observations from a re-analysis of the deposited data

Results flagged for a closer look

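The results below are those where the change with a drug differed between the cell lines or between the times, each by the edgeR test of the difference itself. No sample in a group of 2 could be tested as lying far from the others, and every value column of the table was used. Where a call was lost with a library left out, the number of libraries that ended it and the largest adjusted p are given, and for other fits the largest adjusted p. With 8CA at 24 h, the change differed between the lines in 15 members. The differences (MV4-11 minus KG-1a, log2 scale) of the named members were -0.33 for LRRC75A-AS1, 0.34 for PSMD5-AS1, -0.28 for DHRS4-AS1, 0.96 for GAS6-AS1, -0.89 for PAN3-AS1, 0.76 for VPS9D1-AS1, -1.47 for HMGN3-AS1, 1.05 for MBNL1-AS1 and -0.80 for TNRC6C-AS1. Leaving out each of the 24 libraries in turn ended the call of PSMD5-AS1 (4, adjusted p = 0.11 without MV4-11 untreated 24 h replicate A), DHRS4-AS1 (14, adjusted p = 0.16 without MV4-11 8CA 24 h replicate B), GAS6-AS1 (4, adjusted p = 0.11 without KG-1a 8CA 24 h replicate A) and HMGN3-AS1 (7, adjusted p = 0.14 without MV4-11 untreated 24 h replicate A). Another fit ended the call of DHRS4-AS1 (adjusted p = 0.11 by DESeq2).

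With 8AA at 24 h, the change differed between the lines in 39 members. The differences (MV4-11 minus KG-1a, log2 scale) of the named members were 0.47 for TTN-AS1, 1.11 for TMEM9B-AS1, 1.54 for GAS6-AS1, -1.74 for H1FX-AS1, -1.37 for PAN3-AS1, -0.48 for GABPB1-AS1, -0.81 for FAM13A-AS1, 1.03 for KDM4A-AS1, 1.78 for VPS9D1-AS1, 1.02 for ZBTB11-AS1, 1.94 for MAN1B1-AS1, 2.37 for USP2-AS1, 0.68 for SLFNL1-AS1, 1.12 for MBNL1-AS1 and -1.21 for ZNF582-AS1. Leaving out each of the 24 libraries in turn ended the call of TTN-AS1 (7, adjusted p = 0.12 without MV4-11 8AA 24 h replicate A), GABPB1-AS1 (3, adjusted p = 0.083 without KG-1a untreated 24 h replicate A), FAM13A-AS1 (2, adjusted p = 0.093 without MV4-11 untreated 24 h replicate A), KDM4A-AS1 (4, adjusted p = 0.17 without MV4-11 8AA 24 h replicate B), SLFNL1-AS1 (1, adjusted p = 0.08 without MV4-11 untreated 24 h replicate B) and ZNF582-AS1 (4, adjusted p = 0.15 without MV4-11 untreated 24 h replicate A). Another fit ended the call of TTN-AS1 (adjusted p = 0.074 with library size alone), KDM4A-AS1 (adjusted p = 0.064 by DESeq2) and SLFNL1-AS1 (adjusted p = 0.071 by DESeq2).

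With 8CA in MV4-11, the 24 h change differed from the 8 h change in 16 members. The differences (24 h minus 8 h, log2 scale) of the named members were 0.34 for LRRC75A-AS1, 0.40 for PSMA3-AS1, 0.68 for PSMD5-AS1, 0.49 for THAP9-AS1, 1.42 for TMEM9B-AS1, 0.77 for GAS6-AS1, -0.56 for TMPO-AS1, 0.35 for VPS9D1-AS1, 1.75 for VLDLR-AS1, -1.40 for HMGN3-AS1 and -1.48 for DDX11-AS1. Leaving out each of the 12 libraries in turn ended the call of PSMA3-AS1 (3, adjusted p = 0.076 without MV4-11 8CA 24 h replicate A), THAP9-AS1 (6, adjusted p = 0.17 without MV4-11 8CA 24 h replicate A), GAS6-AS1 (1, adjusted p = 0.051 without MV4-11 untreated 24 h replicate B), VPS9D1-AS1 (6, adjusted p = 0.13 without MV4-11 untreated 24 h replicate B), VLDLR-AS1 (3, adjusted p = 0.17 without MV4-11 untreated 8 h replicate A), HMGN3-AS1 (7, adjusted p = 0.14 without MV4-11 8CA 8 h replicate B) and DDX11-AS1 (7, adjusted p = 0.12 without MV4-11 8CA 24 h replicate A). Another fit ended the call of VPS9D1-AS1 (adjusted p = 0.059 by DESeq2) and DDX11-AS1 (adjusted p = 0.052 in the fit of all 24 libraries).

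With 8AA in MV4-11, the 24 h change differed from the 8 h change in 6 members. The differences (24 h minus 8 h, log2 scale) of the named members were 0.58 for TTN-AS1, -0.40 for DHRS4-AS1, 1.09 for TMEM9B-AS1, 0.81 for GAS6-AS1 and 0.96 for VPS9D1-AS1. Leaving out each of the 12 libraries in turn ended the call of TTN-AS1 (8, adjusted p = 0.19 without MV4-11 untreated 24 h replicate B), DHRS4-AS1 (7, adjusted p = 0.14 without MV4-11 8AA 24 h replicate A), TMEM9B-AS1 (3, adjusted p = 0.11 without MV4-11 untreated 8 h replicate B) and GAS6-AS1 (4, adjusted p = 0.13 without MV4-11 untreated 24 h replicate B). Another fit ended the call of TTN-AS1 (adjusted p = 0.096 by DESeq2) and DHRS4-AS1 (adjusted p = 0.12 by DESeq2).

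With 8CA in KG-1a, the 24 h change differed from the 8 h change in 36 members. The differences (24 h minus 8 h, log2 scale) of the named members were 0.78 for LRRC75A-AS1, 0.53 for PSMD5-AS1, 0.60 for THAP9-AS1, 0.49 for DHRS4-AS1, 0.76 for PAN3-AS1, 0.89 for GABPB1-AS1, 1.25 for FAM13A-AS1, -0.63 for VPS9D1-AS1, 0.34 for C20orf166-AS1, 1.21 for NDUFA6-AS1, 1.62 for LAMTOR5-AS1 and 1.38 for TNRC6C-AS1. Leaving out each of the 12 libraries in turn ended the call of PAN3-AS1 (9, adjusted p = 0.36 without KG-1a untreated 8 h replicate B), C20orf166-AS1 (5, adjusted p = 0.17 without KG-1a 8CA 8 h replicate A), NDUFA6-AS1 (7, adjusted p = 0.16 without KG-1a untreated 24 h replicate B) and LAMTOR5-AS1 (4, adjusted p = 0.11 without KG-1a untreated 8 h replicate B). Another fit ended the call of PAN3-AS1 (adjusted p = 0.13 by DESeq2) and C20orf166-AS1 (adjusted p = 0.077 by DESeq2).

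With 8AA in KG-1a, the 24 h change differed from the 8 h change in 31 members. The differences (24 h minus 8 h, log2 scale) of the named members were 0.26 for PSMD5-AS1, 1.97 for C21orf62-AS1, 0.42 for TMPO-AS1, 1.01 for PAN3-AS1, 0.81 for GABPB1-AS1, -0.64 for VPS9D1-AS1, 1.23 for SAMSN1-AS1, 0.40 for C20orf166-AS1, 1.24 for NDUFA6-AS1, 0.97 for TNRC6C-AS1, -1.58 for TOLLIP-AS1 and 1.56 for ZNF582-AS1. Leaving out each of the 12 libraries in turn ended the call of PSMD5-AS1 (5, adjusted p = 0.14 without KG-1a 8AA 8 h replicate B), C21orf62-AS1 (6, adjusted p = 0.13 without KG-1a untreated 8 h replicate A), TMPO-AS1 (1, adjusted p = 0.059 without KG-1a untreated 24 h replicate A), PAN3-AS1 (2, adjusted p = 0.14 without KG-1a untreated 8 h replicate B), C20orf166-AS1 (3, adjusted p = 0.077 without KG-1a untreated 8 h replicate A), NDUFA6-AS1 (10, adjusted p = 0.18 without KG-1a untreated 24 h replicate B), TOLLIP-AS1 (10, adjusted p = 0.21 without KG-1a untreated 8 h replicate B) and ZNF582-AS1 (4, adjusted p = 0.067 without KG-1a 8AA 8 h replicate B). Another fit ended the call of PSMD5-AS1 (adjusted p = 0.053 by DESeq2), TMPO-AS1 (adjusted p = 0.068 by DESeq2), NDUFA6-AS1 (adjusted p = 0.19 by DESeq2) and TOLLIP-AS1 (adjusted p = 0.059 with upper-quartile scaling). For ZEB1-AS1 and PYCARD-AS1 a line difference was called with 8AA, but a group had at most 1 count, so no value is given.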

How the results depend on the processing

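No result named in the text reversed its direction under the alternatives. With no filter on low counts, 4 members fell with 8AA at 24 h in MV4-11, 1 rose and 1 fell with 8CA at 8 h in KG-1a, and 26 differed between 24 h and 8 h with 8CA in MV4-11. DESeq2's Wald test gave 36 higher and 7 lower (8CA, 24 h), 24 and 1 (8AA, 24 h), 6 and 2 (8CA, 8 h) and 18 higher (8AA, 8 h) in MV4-11. By the same test 8 (24 h) and 3 (8 h) members in MV4-11 and 34 and 35 in KG-1a differed between the drugs, 10 (8CA) and 3 (8AA) in MV4-11 and 18 and 16 in KG-1a between the times, and 24 between the lines with 8AA. With limma on the log2 ratio, 29 pairs were above and 1 below with 8AA at 24 h in MV4-11. With at least 10 counts in every library, 65 members were higher and 52 lower in untreated MV4-11 than in KG-1a, since fewer were tested.

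Leaving out 1 library at a time, the members that fell and rose in MV4-11 ranged from 7 to 15 and 41 to 67 (8CA, 24 h), 1 to 3 and 21 to 51 (8AA, 24 h), 2 to 4 and 1 to 14 (8CA, 8 h), and 4 to 7 and 23 to 42 (8AA, 8 h). In KG-1a they ranged from 8 to 14 and 53 to 83, 12 to 20 and 79 to 101, 0 to 1 and 0 to 3, and 15 to 28 and 40 to 65. Between the drugs the ranges were 7 to 20 (24 h) and 2 to 7 (8 h) in MV4-11 and 38 to 61 and 31 to 72 in KG-1a. Between the times they were 8 to 18 (8CA) and 2 to 6 (8AA) in MV4-11 and 20 to 43 and 18 to 41 in KG-1a, and between the lines 8 to 18 (8CA), 24 to 43 (8AA), and 86 to 93 lower and 103 to 117 higher untreated. Pairs above and below ranged from 33 to 58 and 7 to 18 (8CA) and 18 to 47 and 0 to 3 (8AA) in MV4-11, and 40 to 58 and 8 to 15, and 62 to 77 and 13 to 18 in KG-1a. The cause of these shifts was not tested.

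With the replicate letter as a block, 20 members fell and 103 rose with 8AA at 24 h in KG-1a, and no count moved by over 1.5 times. Of the named values, 1 lost its call under the block (H1FX-AS1 against H1FX, 8CA, KG-1a, adjusted p = 0.056). Deviations of libraries with the same letter correlated between -0.12 and 0.16 over 15 group pairs in MV4-11 (above 0.1 in 6) and between -0.08 and 0.16 in KG-1a (above 0.1 in 2), so the letters were not taken to pair the libraries. Scaling by library size alone moved the median of all genes by 0.11 with 8AA at 24 h in KG-1a, where 111 members then rose and 15 fell. Changes of 1.5-fold were recovered less often than changes of 2-fold in simulated counts, and 2 libraries a group limit the precision.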
